A study of Mus musculus with 6 samples.

Results

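Solute carriers are membrane proteins that move small molecules into and out of cells. The 9 carriers described here are the glucose carriers Slc2a1 and Slc2a3, the monocarboxylate carriers Slc16a1 and Slc16a4, the nucleoside carriers Slc29a1 and Slc29a3, the taurine carrier Slc6a6, the glutamine carrier Slc38a5 and the organic anion carrier Slco2b1. They were chosen by name and are 9 of the 43271 genes in the count table. RNA was sequenced from primary brain microvascular endothelial cells of wild-type C57BL/6 mice. Confluent cultures received dolutegravir (DTG), an inhibitor of the HIV integrase, at 5000 ng/ml for 24 h (3 libraries), or the vehicle DMSO for 24 h (3 libraries). The study's title places the question in endoplasmic reticulum stress and disruption of the blood-brain barrier.

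Brain capillary endothelium is sealed by tight junctions, so polar nutrients cross it mainly through carriers. Facilitative carriers of the SLC2 and SLC29 families let glucose and nucleosides run down their gradients, SLC16 carriers move lactate, pyruvate and ketone bodies together with a proton, and SLC6A6 draws taurine in with sodium and chloride. In the cell, hexokinases trap the glucose that has entered, and kinases such as adenosine kinase do the same for nucleosides.

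Libraries held between 41162353 and 56316335 counts. Both treatments used cells of passages 2 to 6 in endothelial medium with 5% serum and growth factors. No label says that the libraries within a treatment are independent cultures; the p-values therefore rest on a spread among libraries that may be technical. Library names carry a P4 or P5 tag that the labels do not define; DTG replicates 2 and 3 and DMSO replicate 1 carry P4, and DTG replicate 1 and DMSO replicates 2 and 3 carry P5. The names also carry a number that DTG replicates 1 and 2 share, as do DMSO replicates 1 and 2, and DTG replicate 3 shares its number with DMSO replicate 3. If libraries that share a number are not independent, n = 3 is too high and the p-values are too small. The chi-square per degree of freedom between 2 libraries is larger where their counts are less alike. It was 8.83 for DTG replicates 2 and 3 (both P4), 58.1 for 1 and 2 and 46.6 for 1 and 3. For DMSO replicates it was 20.7 for 1 and 2, 49.9 for 1 and 3 and 40.7 for 2 and 3 (both P5). These values cannot show which libraries are independent cultures. Of 12 endothelial marker genes all 12 were tested and none was at 0. Markers of 7 other cell types were summed in CPM, each library being scaled by TMM. Pericyte and smooth muscle markers summed to 0.799 to 1.51 CPM in DTG and 0.624 to 0.737 CPM in DMSO libraries, with Rgs5, Kcnj8 and Cnn1 at 0, and epithelial and choroid plexus markers to at most 0.0784 CPM in DTG and 0.0788 CPM in DMSO, with Epcam and Ttr at 0. Fibroblast markers summed to 7.88 to 8.68 CPM in DTG and 6.52 to 7.52 CPM in DMSO, mostly Pdgfra, which was not called. Of the 2 tested genes in each of the pericyte and fibroblast lists, Pdgfrb (109 counts in DTG against 30 in DMSO) and Col1a1 (128 against 68) were called higher. Among untested genes of these lists Col1a2 had 57 counts in DTG against 2 in DMSO, whereas Cspg4 had 4 against 25 and Dcn 13 against 23. Oligodendrocyte markers summed to 1.23 to 1.41 CPM in DTG and 1.57 to 1.87 CPM in DMSO, with Mog, Olig1 and Olig2 at 0. Neuron markers summed to 2.69 to 6.29 CPM in DTG and 0.650 to 0.708 CPM in DMSO, with Map2 at 0. In DTG most of this was Tubb3 (693 counts in DTG against 16 in DMSO), whereas Syp had 48 counts in DTG against 63 in DMSO and Rbfox3 4 against 15. The astrocyte list summed to 205 to 251 CPM in DTG and 60.8 to 68.4 CPM in DMSO libraries, with Aqp4 at 0. Nearly all of this was Gja1, which endothelium also expresses. Of the 2 tested genes of this list Gja1 was called higher, whereas S100b (284 counts in DTG against 657 in DMSO) was called lower. The microglia list summed to 6.26 to 7.82 CPM in DTG and 23.6 to 29.5 CPM in DMSO libraries, with P2ry12 and C1qa at 0. Nearly all of this was Tmem119, which was called lower (1058 counts in DTG against 4128 in DMSO). Among the untested genes of this list Aif1 had 1 count in DTG against 12 in DMSO. In contrast, Cx3cr1 had 11 against 2, Csf1r 19 against 12, Itgam 7 against 4 and Ptprc 4 against 1. The part of these shifts in the changes below was not tested.

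Of the 9 carriers 6 had enough counts for testing, and each of these had at least 47 counts in every library of both groups. In DTG cultures Slc2a1 and Slc16a1 rose, and Slc16a4, Slc29a1 and Slc6a6 fell, each by more than 2-fold. Slc29a3 did not pass the test. Slc2a3, Slc38a5 and Slco2b1 were at or near the detection limit in all libraries. A gene was called when the adjusted p was under 0.05 over all 14101 genes tested. Among all genes tested, 27.4% were called higher and 29.3% lower (56.7% together), and 14.6% were called with a log2 change of 1 or more in either direction. The list of 9 was thus read against a background in which most genes were called, and no test was made of the list itself. Groups of libraries did not overlap for 5 of the 6 tested carriers, against 64.2% of all genes tested (31.1% with DTG above and 33.1% with DTG below). The median log2 change of the 6 was -0.84, against -0.01 over all genes tested. It falls between Slc29a3 (-0.16) and Slc6a6 (-1.52) and is not a shift shared by the 6, since 2 were called higher and 3 lower.

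Slc2a1 (ENSMUSG00000028645) encodes GLUT1, the main glucose carrier of brain capillary endothelium. It was present at 304, 404 and 388 CPM in DTG replicates 1, 2 and 3, against 146, 136 and 123 CPM in DMSO replicates 1, 2 and 3. Every DTG library lay above every DMSO library, and DTG replicate 1 was the lowest of its group. The mean was 365 ± 53.5 CPM in DTG and 135 ± 11.5 CPM in DMSO (SD, n = 3 each), a 2.70-fold rise (log2 change 1.43 ± 0.11 SE, adjusted p = 4.87e-06).

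Slc16a1 (ENSMUSG00000032902) encodes MCT1, which carries lactate, pyruvate and ketone bodies across the endothelium. Its level was 106, 127 and 119.7 CPM in DTG replicates 1, 2 and 3 and 48.2, 53.0 and 64.5 CPM in DMSO replicates 1, 2 and 3. The groups did not overlap, and DTG replicate 1 was again the lowest DTG library. Slc16a1 rose 2.13-fold, to 118 ± 10.3 CPM in DTG against 55.2 ± 8.38 CPM in DMSO (SD, n = 3 each; log2 change 1.09 ± 0.11 SE, adjusted p = 2.62e-05).

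**Figure D1:**
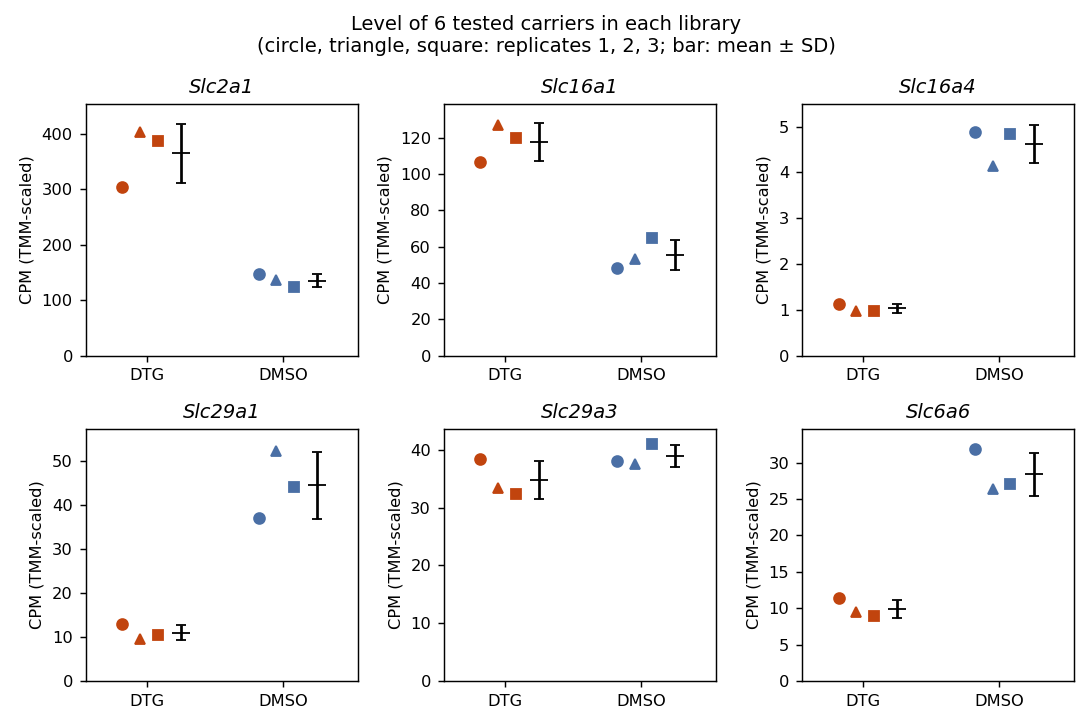
Level in CPM (linear axes from 0) of the 6 tested carriers in each DTG library and each DMSO library, with the mean and SD of the 3 libraries of a group. Slc2a1 and Slc16a1 lie higher in every DTG library, Slc16a4, Slc29a1 and Slc6a6 lower in every DTG library, and the groups overlap for Slc29a3.

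Slc16a4 (ENSMUSG00000027896) encodes a further member of the monocarboxylate carrier family, whose substrates are less well defined. It had 61, 50 and 47 counts in DTG replicates 1, 2 and 3, which are 1.13, 0.980 and 0.975 CPM. In DMSO replicates 1, 2 and 3 it had 248, 246 and 210 counts, which are 4.88, 4.15 and 4.84 CPM. All DTG libraries lay below all DMSO libraries at this low level. Slc16a4 fell 4.47-fold (log2 change -2.16 ± 0.16 SE, adjusted p = 2.95e-06). Slc16a1 and Slc16a4, which belong to one family and lie on one chromosome, thus moved in opposite directions.

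The start regions of these 3 carriers, chosen after their values were seen, are shown to set the 2 carriers that rose beside Slc16a4, which fell. The sequences run 5′ to 3′ on the plus strand of GRCm38.p6, from RefSeq start sites, and end 31 bases before the start: chr4:119108495-119108714 for Slc2a1, chr3:104638414-104638633 for Slc16a1 and chr3:107290980-107291199 for Slc16a4. Capitals mark ACGTG, a form of the core of the hypoxia response element, on either strand. The other form, GCGTG, was not searched and is not marked.
Slc2a1: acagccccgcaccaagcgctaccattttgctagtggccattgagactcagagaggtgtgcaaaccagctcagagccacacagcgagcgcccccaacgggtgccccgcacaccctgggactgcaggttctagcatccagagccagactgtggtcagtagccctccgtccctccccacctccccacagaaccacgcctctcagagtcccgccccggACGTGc
Slc16a1: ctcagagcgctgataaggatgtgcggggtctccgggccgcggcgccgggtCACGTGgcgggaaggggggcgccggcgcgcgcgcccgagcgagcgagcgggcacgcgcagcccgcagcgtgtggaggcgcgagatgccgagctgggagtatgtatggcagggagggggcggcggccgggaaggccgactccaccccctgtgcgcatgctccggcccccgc
Slc16a4: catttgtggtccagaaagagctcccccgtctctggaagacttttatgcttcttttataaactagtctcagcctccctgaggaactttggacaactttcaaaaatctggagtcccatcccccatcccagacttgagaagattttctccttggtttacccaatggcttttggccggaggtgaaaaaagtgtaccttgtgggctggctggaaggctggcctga

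Over the 250 bases before the start, GC content was 66.4% for Slc2a1, 76.4% for Slc16a1 and 48.0% for Slc16a4, against a median of 52.4% over 32851 RefSeq start regions of mouse. The dinucleotide CG occurred 13 times in the Slc2a1 window, 37 times in the Slc16a1 window and 2 times in the Slc16a4 window, with a median of 6 over all start regions. Slc6a6, which fell, and Slc2a3 had no entry among these start regions. Over the called carriers with an entry, base composition did not follow the direction of change: the 8 starts of Slc29a1, which fell, had 51.2% to 73.2% GC and 2 to 24 CG. Slc29a3, which was not called, had 63.6% GC and 15 CG. ACGTG was found once upstream of Slc2a1, at -36 to -32 relative to the start, and upstream of Slc16a1 on both strands as a palindrome at -200 to -195. It was not found in the Slc16a4 window. It was also found upstream of 3 of the 8 starts of Slc29a1, which fell, and upstream of Slc38a5. Of all start regions 16.6% held ACGTG on either strand, so a match is common, and it is a description of letters and not a binding site. The C/EBP-ATF response element TGATGNAA (3.45% of all start regions), the unfolded protein response core TGACGTG (1.65%), which contains ACGTG, and the endoplasmic reticulum stress response element (0.113%) were found in no window of the 7 carriers that had a RefSeq start region.

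Slc29a1 (ENSMUSG00000023942) encodes ENT1, the equilibrative carrier that moves adenosine and other nucleosides across the plasma membrane. It was present at 12.8, 9.62 and 10.4 CPM in DTG replicates 1, 2 and 3, against 37.1, 52.3 and 44.0 CPM in DMSO replicates 1, 2 and 3. The highest DTG library was far below the lowest DMSO library. Slc29a1 fell 4.06-fold, to 11.0 ± 1.67 CPM in DTG against 44.5 ± 7.64 CPM in DMSO (SD, n = 3 each; log2 change -2.02 ± 0.15 SE, adjusted p = 2.77e-06).

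Slc29a3 (ENSMUSG00000020100) encodes ENT3, the nucleoside carrier of lysosomes. Its level was 38.5, 33.4 and 32.4 CPM in DTG replicates 1, 2 and 3 and 38.0, 37.6 and 41.0 CPM in DMSO replicates 1, 2 and 3. The groups overlapped through DTG replicate 1. The log2 change was -0.16 ± 0.09 SE (adjusted p = 0.148), and the gene was not called. It was called lower without DTG replicate 1 (log2 change -0.21, adjusted p = 0.0490) and with upper-quartile (-0.25, adjusted p = 0.0341) or library-size scaling (-0.33, adjusted p = 0.0108), with adjusted p between 0.0108 and 0.843 over 18 alternatives.

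Slc6a6 (ENSMUSG00000030096) encodes TauT, the sodium- and chloride-coupled taurine carrier. Its level was 11.3, 9.41 and 8.90 CPM in DTG replicates 1, 2 and 3, against 31.8, 26.3 and 27.1 CPM in DMSO replicates 1, 2 and 3. No DTG library reached the DMSO range. Slc6a6 fell 2.87-fold, to 9.88 ± 1.28 CPM in DTG against 28.4 ± 2.98 CPM in DMSO (SD, n = 3 each; log2 change -1.52 ± 0.12 SE, adjusted p = 4.43e-06). Of 12 endothelial marker genes 9 were called lower and 0 higher by edgeR with TMM and with each other scaling tried, against 29.3% of all genes called lower with TMM. The other 3, Cdh5, Flt1 and Esam, had log2 changes of 0.17, 0.07 and 0.05 and were not called. The summed level of the 12 was 7863 to 8188 CPM in DTG against 12280 to 13375 CPM in DMSO libraries. The part of these markers in the changes of the carriers was not tested. In bulk RNA, fewer cells that express a carrier and less of its RNA per cell cannot be told apart.

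Slco2b1 (ENSMUSG00000030737), which encodes the organic anion carrier OATP2B1, had 0, 0 and 1 counts in DTG replicates 1, 2 and 3, against 6, 7 and 7 counts in DMSO replicates 1, 2 and 3. It was too low for the test. The ratio of DTG to DMSO counts per scaled library size was 0.0502 (95% exact counting interval 0.00121 to 0.314), which covers counting error only. Both fits that kept the gene called it lower, edgeR without a count filter (adjusted p = 0.00167) and DESeq2 (adjusted p = 0.0183). Slc38a5 (ENSMUSG00000031170), which encodes the glutamine carrier SNAT5, had 0 counts in every DTG library, and 0, 1 and 0 counts in DMSO replicates 1, 2 and 3. A count of 0 over the 3 DTG libraries allows a level of up to 0.0196 CPM. Slc2a3 (ENSMUSG00000003153), which encodes GLUT3, the glucose carrier known best from neurons, had exactly 1 count in each of the 6 libraries. No fold is given for Slc38a5 or Slc2a3, both of which lay at or under 3 counts per group. Thus 3 of the 9 carriers had little or no RNA in these cultures with either treatment.

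Within the groups, DTG replicate 1 was the DTG library nearest to the DMSO mean for 5 of the 5 called carriers, as it was for 68.7% of all called genes. This library is the 1 DTG library with the P5 tag. Estimated within tags, Slc2a1 changed by 1.43 log2 within P4 and 1.23 within P5, Slc16a1 by 1.36 and 0.86, Slc6a6 by -1.80 and -1.24, Slc16a4 by -2.32 and -1.98, and Slc29a1 by -1.89 and -1.91. Each of these comparisons has 1 library in an arm, which is assumed to vary like the other libraries; under that assumption the adjusted p of all 5 was under 0.05 within each tag. The difference between tags was tested as an interaction in edgeR: its smallest p among the 6 carriers was 0.00839 for Slc6a6 and 0.0308 for Slc16a1, and neither passed over all genes (adjusted p = 0.407 and 0.478). With 1 library in an arm within each tag, the interaction test cannot show that the changes were the same in both tags.

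**Figure D2:**
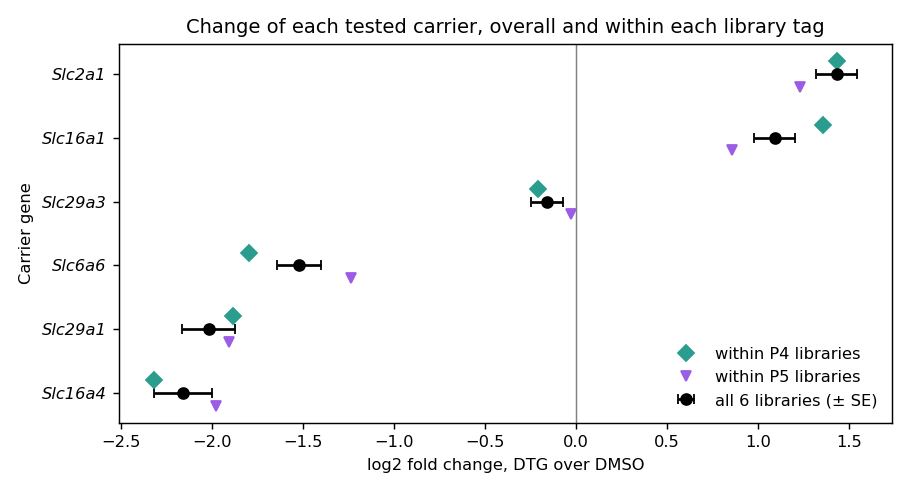
log2 fold change of DTG over DMSO for each tested carrier from all 6 libraries with its standard error (black), and within the P4 and P5 libraries alone (colours, no error drawn). Slc2a1 and Slc16a1 lie right of 0 and Slc6a6, Slc29a1 and Slc16a4 left of 0 in all 3 estimates, and Slc29a3 lies near 0.

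Divided by exon length, the carriers could be ordered by level. In DTG libraries Slc2a1 led with 86.7 to 115 CPM per kilobase, followed by Slc16a1 with 24.1 to 28.7, Slc29a3 with 5.55 to 6.59, Slc29a1 with 2.40 to 3.20, Slc6a6 with 1.05 to 1.34 and Slc16a4 with 0.251 to 0.292 CPM per kilobase. In DMSO libraries Slc2a1 also led, with 35.2 to 41.8 CPM per kilobase, followed by Slc16a1 with 10.9 to 14.6, Slc29a1 with 9.26 to 13.1, Slc29a3 with 6.44 to 7.03, Slc6a6 with 3.11 to 3.76 and Slc16a4 with 1.07 to 1.26 CPM per kilobase. Neighbours in the DTG order did not overlap among these 6 carriers. In the DMSO order Slc16a1 and Slc29a1 overlapped. The nucleoside carriers stood in the opposite order in the 2 treatments, with Slc29a3 above Slc29a1 in all 3 DTG libraries and below it in all 3 DMSO libraries. This order in DMSO rests on the division by length: in CPM, Slc29a3 was above Slc29a1 in DMSO replicate 1 as well (38.0 and 37.1 CPM). The 3 carriers near the limit came last in both, under 0.0271 CPM per kilobase. The summed level of the 9 carriers was 474 to 584 CPM in DTG against 305 to 309 CPM in DMSO libraries, of which Slc2a1 held the greater part in DTG.

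Each carrier was then set within its family as a share of the family's summed level per kilobase. Slc2a1 held 89.7% ± 1.08 of 15 hexose carriers in DTG and 80.1% ± 1.28 in DMSO (SD, n = 3 each). Slc16a1 held 61.3% ± 0.321 of 16 monocarboxylate carriers in DTG and 45.5% ± 6.84 in DMSO, and Slc16a4 held 0.617% ± 0.107 in DTG and 4.34% ± 0.190 in DMSO. Slc29a1 held 29.8% ± 1.53 of 7 nucleoside carriers in DTG and 60.6% ± 4.28 in DMSO, and Slc29a3 held 65.1% ± 1.57 in DTG and 36.8% ± 4.10 in DMSO. Slc6a6 held 3.88% ± 0.784 of 10 taurine, osmolyte and related SLC6 carriers in DTG and 15.0% ± 1.54 in DMSO. For each of these 6 shares the groups did not overlap, and the two-sided exact permutation p was 0.1 (adjusted p = 0.1 over the 6 shares), the smallest that 3 against 3 libraries allow. Shares of a whole are not independent, since a rise or fall of any member moves the share of the others. The share of Slc29a3 was higher in DTG although its own level was not (34.7 CPM in DTG, 38.9 CPM in DMSO, not called). No tested nucleoside carrier was called higher, and Slc29a1 was called lower.

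**Figure D3:**
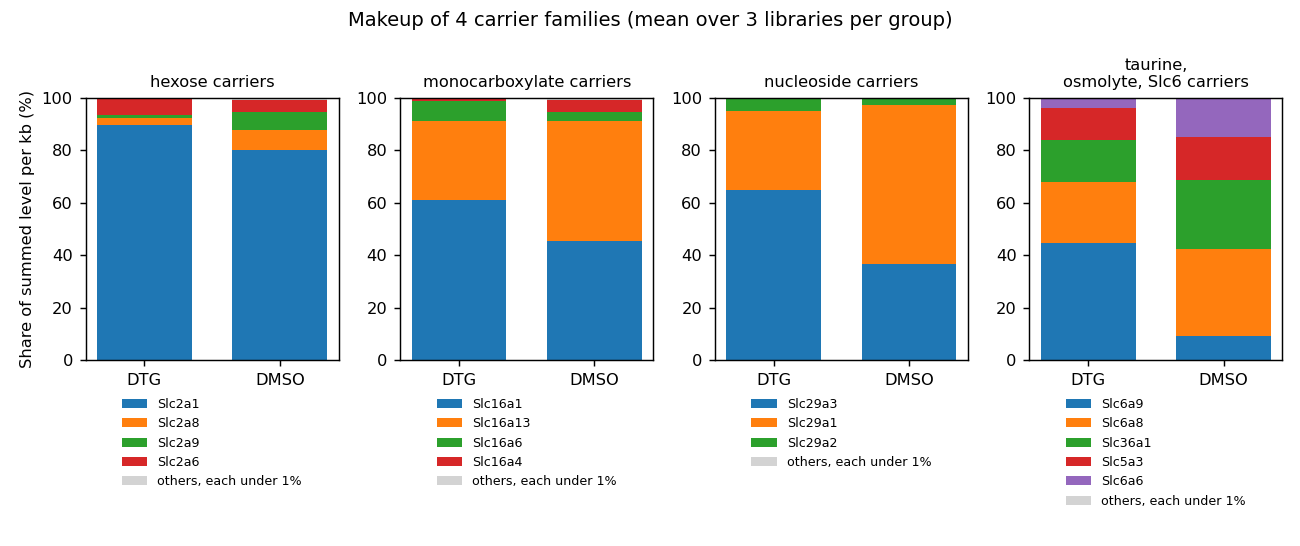
Mean share (%) of each gene in the summed CPM per kilobase of its carrier family in the DTG and DMSO libraries, for genes of at least 1% in either group. Slc2a1 fills 89.7% of the hexose bar in DTG and 80.1% in DMSO, and Slc29a3 and Slc29a1 exchange places in the nucleoside bars.

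Around the 9 carriers, the 6 families comprised 62 further genes, of which 23 were tested. Among these 23, 5 were called higher and 9 lower, with a median log2 change of -0.07, against 27.4% and 29.3% of all genes. With RLE factors 6 were higher and 9 lower, and with the 2 other scalings 5 and 9.

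Of the other hexose carriers Slc2a6 rose and 4 fell. Slc2a6, which encodes the lysosomal GLUT6, averaged 23.2 ± 1.67 CPM in DTG and 7.25 ± 1.62 CPM in DMSO (log2 change 1.67 ± 0.15 SE, adjusted p = 1.09e-05). Slc2a9, which encodes a urate carrier, averaged 7.92 ± 0.762 CPM in DTG and 16.4 ± 0.804 CPM in DMSO (log2 change -1.05 ± 0.10 SE, adjusted p = 2.00e-05). Slc2a2, the glucose carrier of liver and pancreatic islets, was low, with 27 counts in DTG against 215 in DMSO, and fell by 2.97 ± 0.31 SE on the log2 scale (adjusted p = 2.99e-05). Slc2a8 and Slc5a1 fell by 0.34 and 0.98 on the log2 scale. The remaining 9 hexose carriers, Slc2a3 among them, were too low to be tested.

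Genes that hold glucose in the cell or limit its entry moved in part. Hk2, the inducible hexokinase that phosphorylates glucose after entry, averaged 72.4 ± 19.8 CPM in DTG and 12.2 ± 0.265 CPM in DMSO (log2 change 2.56 ± 0.19 SE, adjusted p = 8.29e-06). Hk1, the constitutive form, averaged 295 ± 11.9 CPM in DTG and 262 ± 12.6 CPM in DMSO and did not pass (adjusted p = 0.0706), but was called higher with RLE factors. Txnip, whose product promotes the removal of GLUT1 from the cell surface, fell to 588 ± 20.8 CPM in DTG, against 949.9 ± 99.2 CPM in DMSO (log2 change -0.69 ± 0.09 SE, adjusted p = 0.000120). Its relative Arrdc4 differed by 0.16 on the log2 scale and did not pass (adjusted p = 0.259).

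Of the other monocarboxylate carriers Slc16a6 rose, to 16.3 ± 4.32 CPM in DTG against 4.93 ± 0.836 CPM in DMSO (log2 change 1.73 ± 0.20 SE, adjusted p = 7.88e-05). Slc16a13 and Slc16a10 were tested and not called. Slc16a3, the lactate exporter MCT4 of glycolytic cells, had 0 counts in all 6 libraries. Slc16a1 therefore was the only carrier of the pair MCT1 and MCT4 with RNA here. Bsg, the chaperone that brings MCT1 to the plasma membrane, averaged 367 ± 11.5 CPM in DTG and 392 ± 35.5 CPM in DMSO and was not called (log2 change -0.09 ± 0.08 SE, adjusted p = 0.357), although it was called lower with library-size scaling. Ldha, which converts pyruvate to lactate, rose to 626 ± 44.4 CPM in DTG against 489.7 ± 34.9 CPM in DMSO (log2 change 0.35 ± 0.09 SE, adjusted p = 0.00531), a call that was absent with library-size scaling. Ldhb, the other main subunit, had 1 count in DTG and 0 in DMSO.

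Of the nucleoside carriers Slc29a2, the second plasma membrane member ENT2, was at 1.29 ± 0.233 CPM in DTG and 1.36 ± 0.204 CPM in DMSO and was not called (log2 change -0.07 ± 0.21 SE, adjusted p = 0.779). The concentrative carriers Slc28a1, Slc28a2 and Slc28a3 and the monoamine and nucleoside carrier Slc29a4 had at most 14 counts per group. Of 12 genes of adenosine and nucleoside handling 10 were tested, with 2 higher and 5 lower, beside 27.4% and 29.3% of all genes tested. With upper-quartile or library-size scaling 2 were higher and 7 lower, where 4963 and 5730 of all 14101 genes were lower. Nt5e, the surface enzyme that makes adenosine from AMP, rose to 1.46 ± 0.507 CPM in DTG against 0.203 ± 0.0804 CPM in DMSO (log2 change 2.83 ± 0.36 SE, adjusted p = 0.000106). The adenosine receptor gene Adora2a fell to 1.43 ± 0.094 CPM in DTG against 5.56 ± 1.17 CPM in DMSO (log2 change -1.96 ± 0.18 SE, adjusted p = 1.19e-05). Tk1, the cytosolic thymidine kinase of dividing cells, fell by 1.32 and Tk2, its mitochondrial counterpart, rose by 0.46 on the log2 scale. Adk, adenosine kinase, fell by 0.25 ± 0.09 SE on the log2 scale (adjusted p = 0.0297), and Ada, adenosine deaminase, differed by -0.28 and was not called with TMM (adjusted p = 0.0710), but was called lower with upper-quartile and library-size scaling.

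Beside Slc6a6, the family held a gene that rose: Slc6a9, the glycine carrier GlyT1, averaged 70.4 ± 19.1 CPM in DTG and 10.6 ± 1.46 CPM in DMSO (log2 change 2.73 ± 0.21 SE, adjusted p = 1.71e-05). It held 44.7% of the family's summed level per kilobase in DTG and 9.27% in DMSO. Slc36a1, a lysosomal amino acid carrier, fell by 0.27 on the log2 scale (adjusted p = 0.0304). The osmolyte carrier gene Slc5a3, which takes up myo-inositol, was at 39.8 ± 2.13 CPM in DTG and 39.7 ± 8.01 CPM in DMSO (log2 change 0.01 ± 0.13 SE, adjusted p = 0.969). Nfat5, the osmotic transcription factor known to act on Slc6a6 and Slc5a3, was at 378 ± 9.75 CPM in DTG and 382 ± 52.1 CPM in DMSO and was not called (adjusted p = 0.923). Csad, which makes the precursor of taurine, fell to 26.1 ± 1.55 CPM in DTG against 63.6 ± 7.20 CPM in DMSO (log2 change -1.29 ± 0.10 SE, adjusted p = 3.62e-06). Akr1b3, the aldose reductase that makes sorbitol, rose by 0.71 on the log2 scale (adjusted p = 6.32e-05).

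Although Slc38a5 was at the limit, 6 relatives were tested, with 2 higher and 2 lower. Slc38a2, the widely expressed neutral amino acid carrier SNAT2, averaged 861 ± 88.0 CPM in DTG and 558 ± 43.9 CPM in DMSO (log2 change 0.63 ± 0.10 SE, adjusted p = 0.000359). Slc38a1 rose by 1.48 on the log2 scale (adjusted p = 2.05e-05), and Slc38a9, the lysosomal amino acid sensor, and Slc38a6 fell by 0.45 and 0.25. Slc38a3, the system N glutamine carrier SNAT3, had 10 counts in DTG and 23 in DMSO and was not tested. Among the organic anion carriers, Slco1c1 and Slco1a4, which carry thyroxine and drugs at the mouse barrier, had 0 counts in all 6 libraries. The family's RNA was mostly Slco3a1, which fell to 236 ± 18.9 CPM in DTG against 354 ± 4.53 CPM in DMSO (log2 change -0.58 ± 0.08 SE, adjusted p = 0.000146). Slco4a1 also fell, by 0.71 on the log2 scale (adjusted p = 0.00115), and Slco2a1, the prostaglandin carrier, was at 1.73 ± 0.221 CPM in DTG and 1.52 ± 0.0357 CPM in DMSO and was not called (adjusted p = 0.363).

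**Figure D4:**
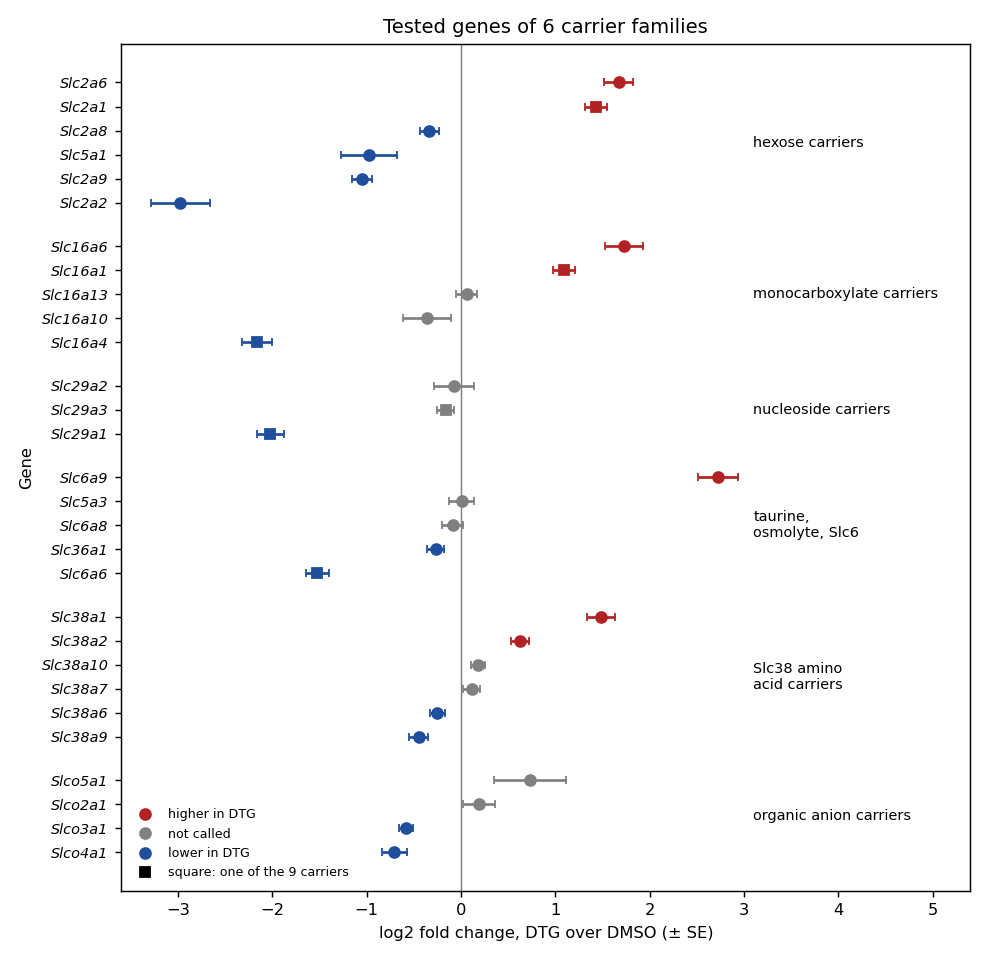
log2 fold change of DTG over DMSO with its standard error for the tested genes of 6 carrier families, coloured by call, with the 6 tested carriers among the 9 as squares. Higher and lower genes occur side by side in the hexose, monocarboxylate, SLC6 and Slc38 groups.

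The genes whose profile over the 6 libraries lay nearest to 3 of the carriers were found by Euclidean distance between centred log2 CPM. Nearest to Slc2a1 were Tmem39a (distance 0.09), Fdft1 (0.10) and Aars (0.11), which rose by 1.37, 1.45 and 1.35 log2. Nearest to Slc16a1 were Tigd2, Pi4k2b and Mtm1 (distances 0.13 to 0.14). Near Slc29a1 lay Fcgrt and Cyp39a1 (distance 0.27 each), which fell by 2.17 and 2.01 log2. The measure rests on 6 libraries in 2 groups, and a shared direction follows from the choice by distance.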

How the data were processed

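The deposited file holds whole-number counts for each Ensembl identifier, without normalization, in which each column matched a library by its name (the column spelled DIG is DTG replicate 1, per the labels). Per the submitters' processing notes the build was GRCm39, and per the labels' protocols the libraries were stranded poly(A) (TruSeq). No aligner, counter, strand setting or annotation is given in the sources used here. Symbols were found for 38606 of 43271 identifiers; identifiers without one held at most 0.486% of a library's counts. Exon lengths came by identifier from GENCODE M21 (GRCm38). Genes annotated over or inside a carrier, on either strand and analysed here, had at most 7 counts per library.

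Counts were filtered by filterByExpr and scaled by TMM in edgeR 4.0.16 (R 4.3.3), and DTG was compared with DMSO by the quasi-likelihood F-test with robust estimation, adjusted by Benjamini-Hochberg over all genes tested; every adjusted p is from it unless another test is named. SE is the absolute log2 change over the square root of F. Interactions used 1 mean per treatment and tag. Alternatives were DESeq2 1.42.0, limma-voom (limma 3.58.1), other scalings, filters, blocks, tags and left-out libraries. The code was tested on simulated data.

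The carriers and lists were chosen with earlier results of these data known. The text names all 9 carriers, the 2 smallest p-values in each direction of each wider list, a set of fixed genes and the 3 nearest profiles of 3 carriers; the profile of Slco2b1 was too low to compare, and some genes that this rule names are not reported here. Further genes were chosen after their values were seen. Motif letters were searched on both strands of RefSeq start regions (GRCm38.p6). Figures used matplotlib 3.10.9 under Python 3.11.15.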

Additional observations from a re-analysis of the deposited data

How the results depend on the processing

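The calls of Slc2a1, Slc16a1, Slc16a4, Slc29a1 and Slc6a6 kept their direction and stayed under an adjusted p of 0.05 in each of 18 alternatives (scaling, tool, filter, robust estimation, replicate block, P tag, within tags and left-out libraries), of which those within tags have an arm of 1 library and are weak support; their log2 changes ranged from 1.23 to 1.58, 0.86 to 1.36, -2.33 to -1.98, -2.19 to -1.89 and -1.80 to -1.24. Of the 9 carriers 2 were higher in every alternative and 3 or 4 lower, the fourth being Slc29a3 or Slco2b1. Leaving out libraries gave 2 higher and 3 to 4 lower carriers. Over all genes, 3860 were higher and 4130 lower; leaving out libraries gave 3360 to 4368 higher and 3110 to 4150 lower. With library-size scaling 2536 were higher and 5730 lower, so that 30.7% of calls were higher, against 48.3% with TMM and 38.2% with upper-quartile factors, and the median of all genes was -0.18 and -0.11 log2 with these 2 scalings. Within P5 2537 were higher and 2575 lower. Libraries with the same replicate number in the labels did not deviate together (correlations -0.28, 0.01 and -0.05). These are 3 correlations of deviations from means of 3 libraries, and they cannot decide whether the replicate numbers pair the samples. The labels do not say so either way. The number in the library names was not fitted: 1 occurs only in DMSO and 2 only in DTG, so it cannot be told apart from treatment there. With the replicate block 3543 genes were higher and 3728 lower, and no call of a carrier changed. Without division by length, the DTG minus DMSO difference in share was 11.6 points for Slc2a1, -4.07 for Slc16a4 and -13.5 for Slc6a6, against 9.65, -3.72 and -11.2; the cause is the length term itself. Left-out libraries gave 9.24 to 10.4 for Slc2a1, 12.2 to 19.0 for Slc16a1, -3.83 to -3.67 for Slc16a4, -32.7 to -28.5 for Slc29a1, 26.0 to 29.9 for Slc29a3 and -11.7 to -10.3 for Slc6a6. Slc2a3, Slc38a5 and Slco2b1 had too few counts for the main test.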
